A study of Mus musculus with 24 samples.

Results

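The 7 poly(ADP-ribose) polymerase family genes (Parp3, Parp8, Parp9, Parp10, Parp11, Parp12 and Parp14) and Dtx3l were followed in ID8 mouse ovarian cancer cells with and without interferon beta (IFN beta). The genes were chosen by name, and these 8 symbols were each found on 1 row of a table of 24614 genes. All 8 passed the filter on low counts, as did 11698 genes in all. ID8 is a line of transformed mouse ovarian surface epithelium, and every culture in this study carried a double knockout of Trp53 and Brca2. The untransfected parent is called WT here, so WT refers to Ifnar1 and not to Trp53 or Brca2. The second control, EV, had been through CRISPR with an empty vector, and 1CF10 and 2CD7 are clones in which Ifnar1, a chain of the type I interferon receptor, was knocked out. Each of the 4 lines was left untreated or given 10000 IU/ml recombinant mouse IFN beta for 3 h, with 3 libraries per group and 24 in all. Each knockout line is 1 clone, and the submitters describe the 3 replicates of a line as technical and treated on 1 date. The p-values below therefore measure the spread between technical replicates, and a difference between a clone and a control cannot be told apart from a difference between 2 cultures of other histories.

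PARP enzymes transfer ADP-ribose from NAD onto proteins or nucleic acids. Parp1 and Parp2 build chains at DNA breaks, while most of the family adds single units or, like Parp9, is best known as a reader and partner protein. In type I interferon signalling, the Ifnar1 and Ifnar2 chains activate Jak1 and Tyk2, and a transcription factor complex that includes Stat2 and Irf9 then binds interferon-stimulated response elements (ISRE) in target genes. Several PARP genes are long-known interferon targets with roles in antiviral defence. Dtx3l is a ubiquitin ligase that works as a complex with Parp9.

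The libraries held 1972192 to 3097331 unique molecular identifiers (UMIs, each counting 1 captured transcript end), and a member had from 2 UMIs (Parp14 in untreated 1CF10 replicate 2) to 624 UMIs (Dtx3l in treated EV replicate 2) in a library. The ID8 marker genes fixed for this work were read at a summed 2430 to 4100 CPM (the UMIs of a gene scaled to a library of 1000000). Within that sum, Krt7 was at 0 to 2 UMIs a library and Upk3b at 2 to 38 UMIs. Of 10 leukocyte markers, 4 were read, Cd14 at 6.91 to 20.5 CPM and Cd79a, Itgam and Csf1r at 1 UMI or fewer a library, and the other 6 were not analysed here. Ifnar1 was read at 4.33 to 12.5 CPM in the clones and 8.94 to 16.7 CPM in the controls. The libraries read transcript 3′ ends, so Ifnar1 counts do not check an edit elsewhere in the gene.

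Parp9 and Dtx3l, which lie head to head on chromosome 16, rose together in both control lines and stayed low in both clones. Untreated WT libraries read Parp9 at 14.3, 28.4 and 15.5 CPM, and treated WT libraries read it at 142, 139 and 157 CPM. Untreated EV libraries read Parp9 at 20.9, 17.9 and 24.8 CPM, and treated EV libraries at 93.5, 104 and 93.6 CPM. Every treated control library was above every untreated one, and every treated EV library was below every treated WT library. Parp9, which carries macrodomains that bind ADP-ribose, rose in WT by 2.99 ± 0.14 on the log2 scale (SE, 8.0-fold, edgeR adjusted p = 3.59e-26) and in EV by 2.24 ± 0.14 (4.7-fold, adjusted p = 7.50e-20). In these bulk RNA samples, a change in the number of responding cells and a change of RNA per cell cannot be told apart.

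Dtx3l was read at 17.4, 34.5 and 27.9 CPM in untreated WT and at 197, 164 and 198 CPM in treated WT. In EV, the values were 20.1, 19.1 and 25.2 CPM untreated and 188, 227 and 215 CPM treated. The treated libraries of both controls lay far above the untreated ones, and the treated WT and treated EV ranges overlapped. The ligase gene rose by 2.85 ± 0.13 in WT (7.2-fold, edgeR adjusted p = 7.06e-24) and 3.33 ± 0.14 in EV (10.1-fold, adjusted p = 4.50e-26).

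Parp14, a large macrodomain protein and mono-ADP-ribosyltransferase, had the largest fold change of the 8 genes in both controls. Its level in untreated WT was 4.92, 7.10 and 5.16 CPM, from 11 to 15 UMIs a library, and in treated WT 108, 89.0 and 96.5 CPM. In EV it was read at 3.61, 6.08 and 8.14 CPM without and at 90.3, 107 and 93.6 CPM with IFN beta. Treated WT and treated EV overlapped, and neither overlapped any untreated library. The log2 fold change was 4.15 ± 0.18 in WT (17.8-fold, edgeR adjusted p = 1.28e-27) and 4.06 ± 0.18 in EV (16.7-fold, adjusted p = 2.06e-27), which placed Parp14 64th and 55th of the 11698 tested genes.

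**Figure D1:**
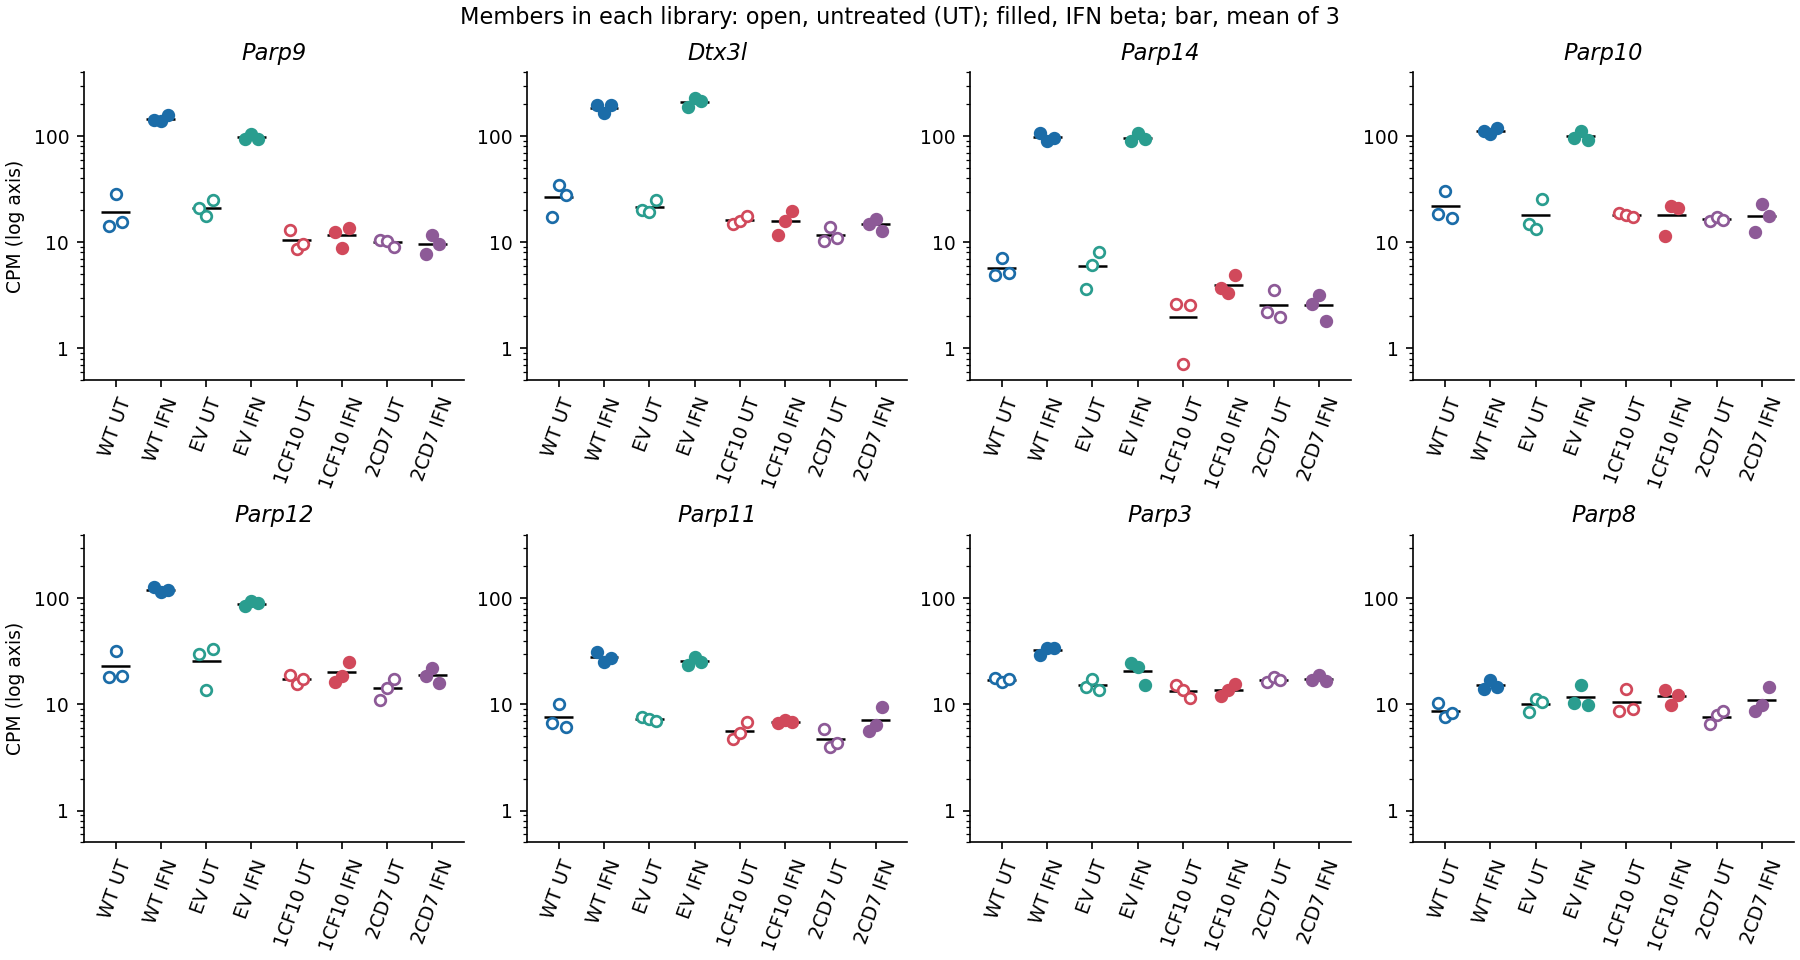
Level of each of the 8 genes (CPM, log axis) in every library, by line and treatment. 6 of the genes sit clear of their untreated level in treated WT and EV, while the 12 clone libraries stay between 0.715 and 4.94 CPM for Parp14 and between 10.2 and 19.8 CPM for Dtx3l. A share of all tested genes with such a gap was not counted.

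The 3 other mono-ADP-ribosyltransferase genes with a clear response, Parp10, Parp11 and Parp12, sit on other chromosomes than the Parp9 group. Parp10 was read at 18.3, 30.4 and 16.9 CPM in untreated WT and 113, 104 and 120.1 CPM in treated WT. Its values in EV were 14.9, 13.4 and 25.6 CPM untreated and 95.2, 111 and 92.7 CPM treated. Treated and untreated libraries did not overlap, and the treated ranges of the controls overlapped each other. The log2 fold changes of Parp10 were 2.44 ± 0.18 in WT (5.4-fold, edgeR adjusted p = 6.09e-12) and 2.51 ± 0.19 in EV (5.7-fold, adjusted p = 9.16e-12).

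Parp12, which has zinc fingers that bind RNA, was read at 18.3, 31.9 and 18.6 CPM in untreated WT and at 127, 116 and 120.1 CPM after IFN beta. In EV the values were 29.7, 13.8 and 33.4 CPM untreated and 84.1, 93.5 and 90.6 CPM treated. All 3 treated EV libraries were below all 3 treated WT libraries, and untreated EV replicate 2 was the lowest of the 6 untreated control libraries. Parp12 rose by 2.48 ± 0.18 in WT (5.6-fold, edgeR adjusted p = 4.35e-12) and 1.84 ± 0.18 in EV (3.6-fold, adjusted p = 4.13e-09).

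Parp11 was the lowest of these 3 genes in UMIs, with 15 to 20 in an untreated WT library and 67 to 82 in a treated one. Its level went from 6.71, 10.1 and 6.19 CPM to 31.2, 25.4 and 27.3 CPM in WT, and from 7.63, 7.30 and 6.92 CPM to 23.7, 28.0 and 25.2 CPM in EV. No treated control library overlapped an untreated one. The log2 fold changes of Parp11 were 1.94 ± 0.21 (3.8-fold, edgeR adjusted p = 2.53e-11) and 1.85 ± 0.21 (3.6-fold, adjusted p = 2.15e-10).

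RefSeq promoter windows, 250 bases before to 50 bases after an annotated start on build GRCm38.p6, were at hand for 5 of the 8 genes (Parp3, Parp8, Parp11, Parp12 and Dtx3l). The core of the ISRE, which is GAAA, any 2 bases and GAAA, or TTTC, any 2 bases and TTTC on the other strand, was found in 1 window of Parp11 as TTTCGATTTC, 44 to 35 bases before the start. A gamma-activated site (GAS), TTCNNNGAA, which reads the same on both strands, was found in that window as TTCTTGGAA at 37 to 29 bases before the start, overlapping the ISRE core. The windows of Parp3, Parp8, Parp12 and Dtx3l and a second window of Parp11 hold neither string, which says only that these letters are not in these windows. Over 32851 windows of all genes, 3.44% hold the ISRE core and 8.30% the GAS string. Counted by gene, 3.99% of 27025 genes have a window with the ISRE core and 9.55% one with the GAS string. The genes called higher in both controls number 398, of which 309 have a window, and 23.6% of those hold the ISRE core and 14.2% the GAS string. The 250 bases before the start are shown for 2 genes that rose in both controls and for Parp8, which did not pass in EV, each 5′ to 3′ on the gene's strand, with every GAAA or TTTC (1 arm of the ISRE core) in capitals. The intervals are chr6:127446590-127446839 on the plus strand for Parp11, chr6:39118350-39118599 on the minus strand for Parp12 and chr13:117025532-117025781 on the minus strand for Parp8.
Parp11: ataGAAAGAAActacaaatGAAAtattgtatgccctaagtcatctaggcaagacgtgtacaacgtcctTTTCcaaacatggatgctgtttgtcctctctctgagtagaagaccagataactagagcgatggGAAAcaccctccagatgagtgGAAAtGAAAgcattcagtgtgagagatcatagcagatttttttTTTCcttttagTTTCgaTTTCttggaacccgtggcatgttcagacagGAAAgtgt
Parp12: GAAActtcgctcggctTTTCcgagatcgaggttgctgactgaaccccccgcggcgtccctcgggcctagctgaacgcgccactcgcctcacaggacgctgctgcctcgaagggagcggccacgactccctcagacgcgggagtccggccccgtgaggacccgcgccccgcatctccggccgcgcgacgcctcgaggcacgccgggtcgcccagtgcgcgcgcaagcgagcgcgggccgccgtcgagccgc
Parp8: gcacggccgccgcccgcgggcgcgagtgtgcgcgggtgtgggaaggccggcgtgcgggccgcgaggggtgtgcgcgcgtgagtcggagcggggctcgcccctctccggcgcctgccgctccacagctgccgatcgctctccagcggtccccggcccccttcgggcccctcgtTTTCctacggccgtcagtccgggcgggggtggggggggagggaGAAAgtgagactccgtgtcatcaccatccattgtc
The Parp11 stretch has 11 such tetramers, against a median of 2 over all windows, and 0.0913% of windows have as many. The second Parp11 window (chr6:127453377-127453626, plus strand) has 1, and 86.4% of windows have as many. Parp12, which rose 5.6-fold in WT, and Parp8 have 2 each, the same as the median. Dtx3l, which rose 7.2-fold in WT, has 3, and 46.3% of windows have as many. In the full windows, G and C made up 42.0% of bases for the first Parp11 start and 59.0% for the second. They made up 73.7% for Parp12, 72.3% for Parp8 and 54.3% for Dtx3l. The part of base composition in these tetramer counts was not tested.

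Parp3 and Parp8 responded least. Parp3, which acts in the repair of DNA breaks, was read at 17.9, 16.2 and 17.2 CPM in untreated WT and 29.3, 34.1 and 33.8 CPM in treated WT. In EV the values were 14.5, 17.4 and 13.8 CPM untreated and 24.5, 22.6 and 15.4 CPM treated, so that treated replicate 3 lay inside the untreated range. Parp3 rose in WT by 0.96 ± 0.17 (1.9-fold, edgeR adjusted p = 1.38e-05) and did not pass in EV (0.50 ± 0.18, adjusted p = 0.128). Without that library, the EV value was 0.67 with an adjusted p of 0.0252.

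Parp8, a member of the mono-ADP-ribosyltransferase group, was read at 10.3, 7.61 and 8.25 CPM in untreated WT and 14.1, 17.0 and 14.7 CPM in treated WT. In EV the values were 8.43, 11.4 and 10.6 CPM untreated and 10.2, 15.3 and 9.83 CPM treated, and these ranges overlapped. The WT difference was 0.85 ± 0.24 (1.8-fold, edgeR adjusted p = 0.0140), and the EV difference was 0.27 ± 0.24 (adjusted p = 0.701). The WT call for Parp8 was lost in 4 of 13 alternatives, with DESeq2 (adjusted p = 0.0593) and without treated WT replicate 2, untreated WT replicate 2 or untreated WT replicate 3, the largest adjusted p being 0.0902.

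By count, 8 of the 8 genes were called higher in WT, where 5.01% of all tested genes were, and 6 of 8 in EV, where 3.99% were. The median log2 fold change of the 8 genes was 2.46 in WT and 2.05 in EV, beside medians of -0.02 and -0.01 over all tested genes. The genes had been picked as interferon-responsive, so these counts describe the choice.

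The size of the response was then compared between the controls directly. None of the 8 genes passed the test of EV response minus WT response, where 0.0427% of all genes were called in either direction and 805 genes had an unadjusted p under 0.05. For Parp9 the difference was -0.76 ± 0.22 (edgeR adjusted p = 0.227), for Parp12 -0.63 ± 0.27 (adjusted p = 0.634) and for Dtx3l 0.48 ± 0.21 (adjusted p = 0.637), all of them with an unadjusted p under 0.05. Untreated WT replicate 2, the library with the fewest UMIs, was the highest of its group for 6 of the 8 genes, and its summed level of the 12 interferon signalling genes, 323 CPM, was above the 230 and 257 CPM of the other two. Such a shift was not particular to it: treated EV replicate 2 was the highest of its group for 7 of the 8 genes, and treated 2CD7 replicate 2 for 6. Without untreated WT replicate 2, the Parp9 difference was -1.09 with an edgeR adjusted p of 0.0142. The part of depth or of interferon tone in the values of untreated WT replicate 2 was not tested.

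**Figure D2:**
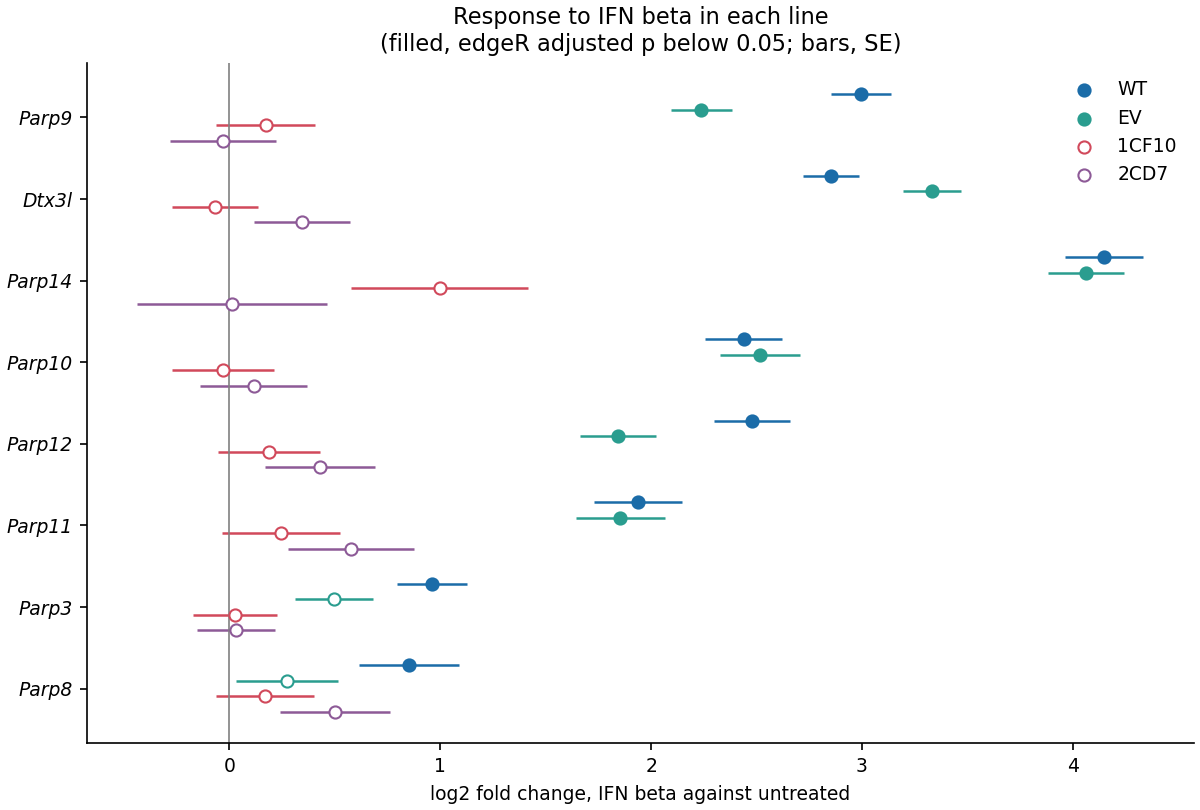
Log2 fold change of each gene with IFN beta in each line (points, filled where the edgeR adjusted p was below 0.05, and bars for the SE). Filled points occur in WT for 8 genes, in EV for 6 and in the clones for none, and the clone values run from -0.07 to 1.00.

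Neither clone showed a call for any of the 8 genes. In 1CF10 and in 2CD7, 0% of all tested genes were called by edgeR, with 485 and 510 genes at an unadjusted p under 0.05. Parp9 stayed at 13.0, 8.57 and 9.69 CPM untreated against 12.4, 8.74 and 13.7 CPM treated in 1CF10, and at 10.5, 10.2 and 9.07 CPM against 7.79, 11.7 and 9.53 CPM in 2CD7. The treated and untreated ranges overlapped in each clone. The log2 change of Parp9 was 0.17 ± 0.23 in 1CF10 and -0.03 ± 0.25 in 2CD7, and its interval (1.96 SE to each side) reached up to 0.63 and 0.46, below the 1.95 at the lower end of the EV interval.

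Dtx3l in 1CF10 was read at 14.7, 15.7 and 17.8 CPM untreated and 11.7, 15.8 and 19.8 CPM treated. In 2CD7 its values were 10.2, 13.8 and 11.1 CPM and then 14.7, 16.7 and 12.7 CPM. The ranges overlapped in both clones, and the log2 changes were -0.07 ± 0.21 and 0.34 ± 0.23.

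Parp14 in 1CF10 was the clone value furthest from 0 and the only 1 with an unadjusted p under 0.05. Untreated libraries read it at 2.60, 0.715 and 2.58 CPM (6, 2 and 8 UMIs) and treated ones at 3.68, 3.33 and 4.94 CPM (11, 8 and 13 UMIs), with no overlap. The log2 change of Parp14 was 1.00 ± 0.42, with an unadjusted p of 0.0205 and an edgeR adjusted p of 0.998. In 2CD7 Parp14 went from 2.18, 3.54 and 1.97 CPM to 2.60, 3.19 and 1.82 CPM, which overlap, with a log2 change of 0.01 ± 0.45. With 2 to 13 UMIs a library, Parp14 was the most thinly counted member in the clones.

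For the other genes the clone changes ran from -0.03 (Parp10) to 0.24 (Parp11) in 1CF10 and from 0.03 (Parp3) to 0.58 (Parp11) in 2CD7. Parp11 was read at 5.82, 3.93 and 4.34 CPM untreated and 5.63, 6.38 and 9.53 CPM treated in 2CD7, and Parp8 at 6.54, 7.87 and 8.68 CPM untreated and 8.65, 9.92 and 14.5 CPM treated. Both pairs of ranges overlapped. The medians over the 8 genes were 0.17 in 1CF10 and 0.23 in 2CD7, against 0.00 and 0.01 over all tested genes.

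Tested as a difference of responses, clones minus controls, 7 of the 8 genes were lower, where 3.68% of all tested genes were. The genes had been picked as interferon-responsive and no gene was called in either clone, so this count describes the choice as well. The difference was -3.60 ± 0.39 for Parp14, -2.95 ± 0.19 for Dtx3l, -2.54 ± 0.21 for Parp9 and -2.43 ± 0.23 for Parp10. It was smaller for Parp12 at -1.85 ± 0.22, Parp11 at -1.48 ± 0.26 and Parp3 at -0.70 ± 0.19 (edgeR adjusted p = 0.0107, the largest of the 7). Parp8 did not pass, at -0.23 ± 0.25 (adjusted p = 0.739), with an interval from -0.71 to 0.25. These 7 calls held in each of 31 alternatives.

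Without added interferon, several of the genes were already lower in the clones than in the controls. Untreated Parp9 was at 8.57 to 13.0 CPM over 6 clone libraries and 14.3 to 28.4 CPM over 6 control libraries, with no overlap. Untreated Parp14 was at 0.715 to 3.54 CPM in clones and 3.61 to 8.14 CPM in controls, apart by less than the spread within either. Untreated Dtx3l was at 10.2 to 17.8 CPM in clones and 17.4 to 34.5 CPM in controls, which overlap at 1 edge. The log2 difference of clones from controls was -0.995 ± 0.15 for Parp9 (edgeR adjusted p = 2.96e-06), -1.37 ± 0.27 for Parp14 (adjusted p = 0.000296) and -0.81 ± 0.14 for Dtx3l (adjusted p = 5.87e-05). These 3 genes are the chromosome 16 group, and each of these calls held in 19 of 19 alternatives. The 7 other tested genes within 250 kb of the group were not called in this comparison. Their log2 differences ran from -0.10 (Dirc2) to 0.41 (Hspbap1, edgeR adjusted p = 0.108). A part of gene position in these differences was not tested.

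Parp12 was also called lower in untreated clones, at -0.63 ± 0.17 (edgeR adjusted p = 0.0203), with 10.9 to 19.1 CPM in clones and 13.8 to 33.4 CPM in controls. That call was lost in 6 of 19 alternatives, with adjusted p up to 0.0948. These were the fit of the compared groups alone and the fits without untreated 1CF10 replicate 2, 2CD7 replicate 1, EV replicate 1, EV replicate 3 or WT replicate 2. Parp11 did not pass (-0.52 ± 0.20, adjusted p = 0.119), nor did Parp10 (-0.20 ± 0.17), Parp3 (-0.11 ± 0.14) or Parp8 (-0.08 ± 0.18). The count of 4 of 8 lower stood beside 4.80% of all tested genes.

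**Figure D3:**
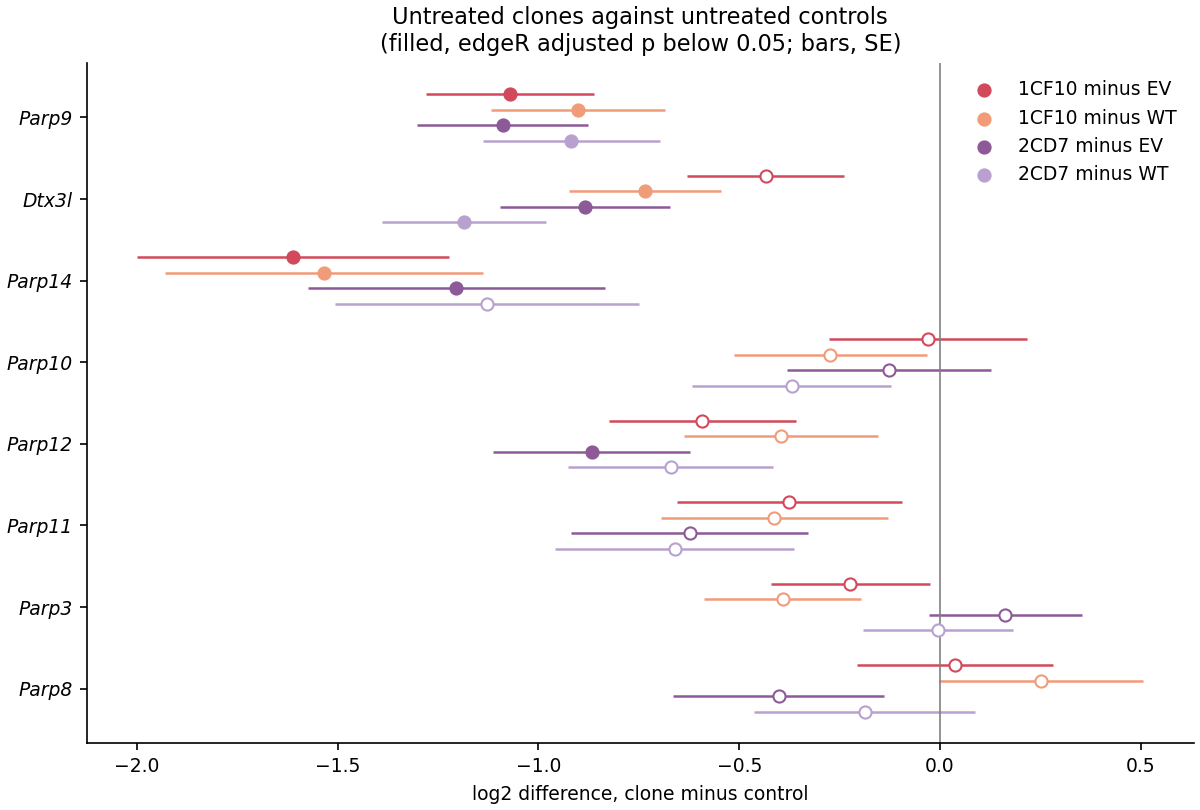
Log2 difference of each untreated clone from each untreated control (points, filled where the edgeR adjusted p was below 0.05, and bars for the SE). Parp9 is filled in all 4 pairs, at -0.90 to -1.09, and Parp10, Parp11, Parp3 and Parp8 in none.

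Pair by pair, the comparisons share their clone or control libraries. Against EV, 1CF10 was lower in 2 genes, Parp9 (-1.07 ± 0.21) and Parp14 (-1.61 ± 0.39), where 6.76% of all genes were lower, and 2CD7 was lower in 4, Parp9 (-1.09 ± 0.21), Parp14 (-1.21 ± 0.37), Dtx3l (-0.88 ± 0.21) and Parp12 (-0.87 ± 0.25), where 4.86% were. Against WT, 1CF10 was lower in 3, Parp9 (-0.90 ± 0.22), Parp14 (-1.53 ± 0.40) and Dtx3l (-0.74 ± 0.19), where 11% of all genes were, and 2CD7 in 2, Parp9 (-0.92 ± 0.22) and Dtx3l (-1.19 ± 0.20), where 2.06% were. Without untreated WT replicate 2, the calls of Parp9 against WT were lost in both clones (edgeR adjusted p = 0.0829 and 0.222), as was that of Dtx3l in 1CF10 (adjusted p = 0.0575). Against EV, the Parp14 call in 1CF10 was lost without untreated EV replicate 3 (adjusted p = 0.0511), and those of Parp12 and Parp14 in 2CD7 were each lost in 5 alternatives (adjusted p up to 0.143 and 0.226). These 5 included leaving out untreated EV replicate 3 or 2CD7 replicate 1 for both genes, untreated EV replicate 1 or 2CD7 replicate 2 for Parp12, and untreated EV replicate 2 or 2CD7 replicate 3 for Parp14. Calls were also gained for Parp12. In 1CF10 minus EV it was lower without untreated EV replicate 2 (-0.89, edgeR adjusted p = 0.000784) and with no filter (adjusted p = 0.0236), and in 2CD7 minus WT with no filter (adjusted p = 0.0286). Between the untreated controls none of the 8 differed by the test, where 14.1% of all genes were called, and none did between the clones, where 13.4% were. Fibroblast markers differed between the lines, at a summed 135 to 194 CPM in 1CF10, 61.1 to 87.7 CPM in WT, 34.6 to 45 CPM in EV and 29.1 to 40.7 CPM in 2CD7 (mostly Col1a1, with Pdgfra and Pdgfrb at 1 UMI each over all libraries). Untreated Parp9 was at 8.57 to 13.0 CPM in 1CF10 and at 9.07 to 10.5 CPM in 2CD7, and the part of these markers in the results was not tested.

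The balance of Parp9 to Dtx3l, whose proteins work as a complex, was examined after the values were seen. The ratio of their UMIs was 0.499, 0.458 and 0.435 in treated EV and 0.720, 0.849 and 0.794 in treated WT. In untreated EV it was 1.04, 0.936 and 0.984, and in untreated WT 0.821, 0.824 and 0.556. Treated EV thus lay below all 9 other control libraries. The difference in log2 ratio was -0.76 ± 0.09 between treated EV and treated WT, -1.09 ± 0.07 between treated and untreated EV, and 0.12 ± 0.20 between treated and untreated WT. Untreated EV was above untreated WT by 0.45 ± 0.19, with all 3 EV ratios above all 3 WT ratios. The exact two-sided permutation p was 0.8 between treated and untreated WT and 0.1 for each of the other comparisons of controls. The smallest p that 3 against 3 libraries allow is 0.1. The clones, with 18 to 37 UMIs of Parp9 a library, had mean ratios of 0.658 and 0.767 (1CF10, untreated and treated) and 0.867 and 0.661 (2CD7). Between treated and untreated clone libraries, the exact permutation p was 0.5 in 1CF10 and 0.2 in 2CD7.

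**Figure D4:**
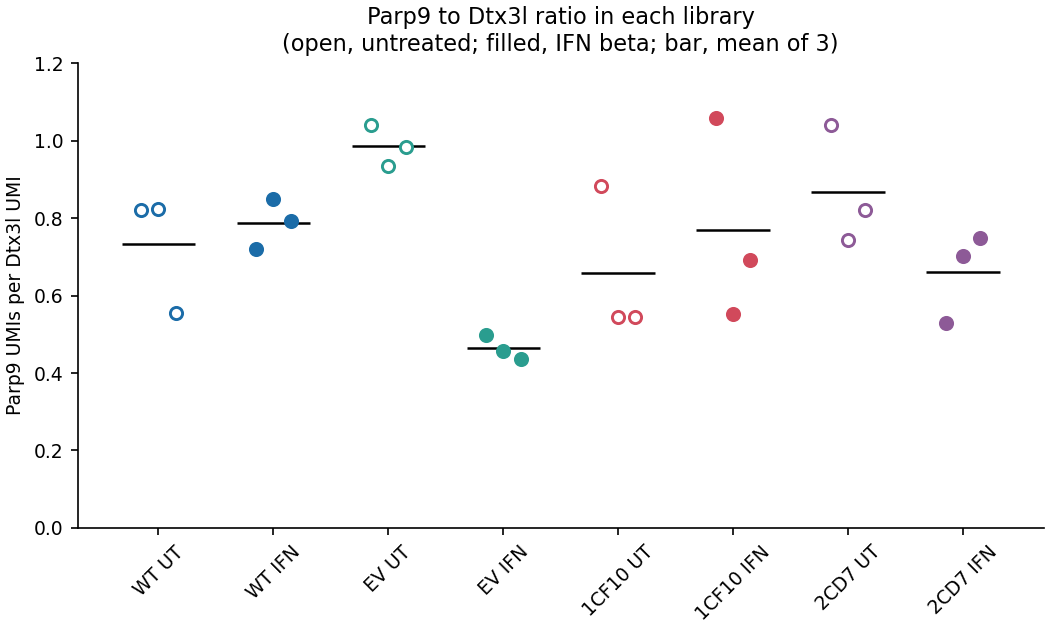
Ratio of Parp9 UMIs to Dtx3l UMIs in every library, by line and treatment. The 3 treated EV libraries sit between 0.435 and 0.499, and the 3 treated WT libraries between 0.720 and 0.849.

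On build GRCm38, with the GENCODE M21 annotation, Parp14 (chr16:35832874-35871544, minus strand), Dtx3l (chr16:35926511-35939151, minus strand) and Parp9 (chr16:35938470-35972605, plus strand) span 139.7 kb. Dtx3l and Parp9 overlap by 682 bases at their 5′ ends, and 4 of 7 annotated Parp9 transcripts start inside the Dtx3l promoter window. The overlap is outside the last exons, from which 3′-end reads mostly come. The last exon of Parp9 is overlapped on the other strand by Gm15564. The labels do not say whether counting used strand, and mixing of the pair's reads was not tested. Gm15564 was called in neither control (0.16 ± 0.32 in WT, -0.27 ± 0.38 in EV). Within 250 kb of the group, 7 other genes were tested (Dirc2, Hspbap1, Gm15564, Kpna1, Wdr5b, Fam162a and Ccdc58), and none was called in WT or EV. Their log2 changes ran from -0.21 to 0.30 in WT and from -0.27 to 0.17 in EV, against 2.24 to 4.15 for the 3 members. The other members are on chromosomes 6 (Parp11 and Parp12), 9 (Parp3), 13 (Parp8) and 15 (Parp10). Plec overlaps Parp10 on the same strand and Rrp9 overlaps Parp3 on the other, both outside the members' last exons.

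**Figure D5:**
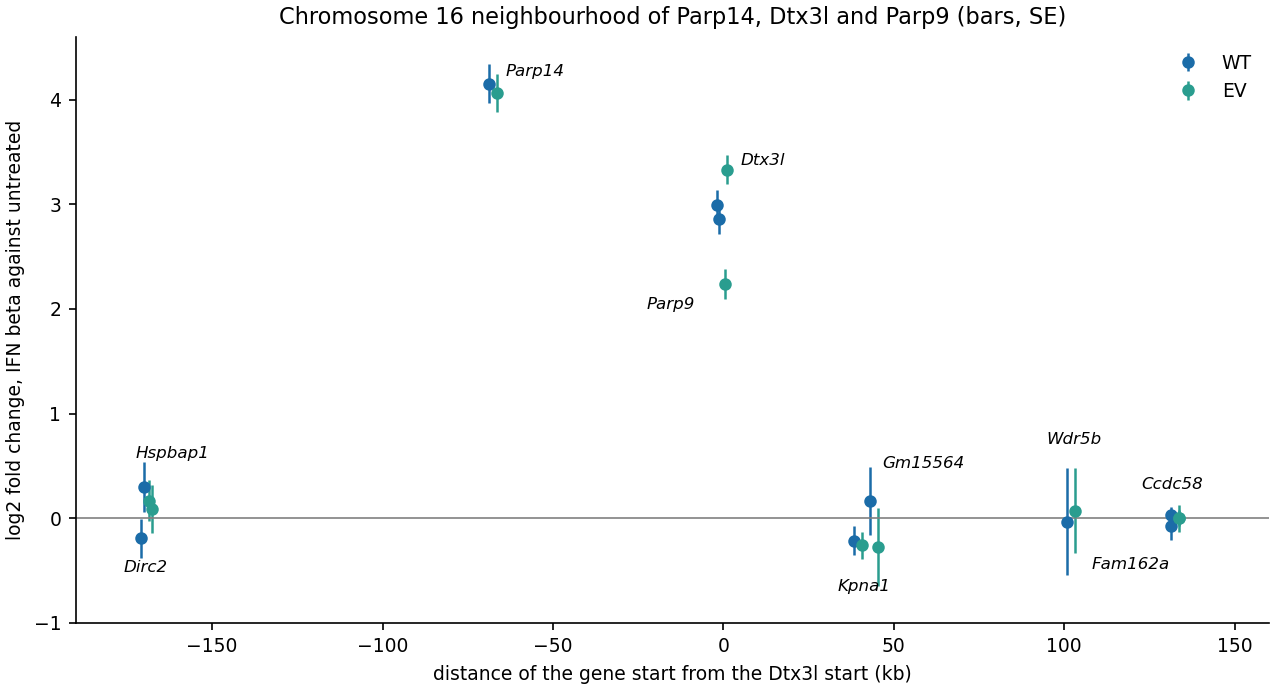
Log2 fold change with IFN beta in WT and EV (points, with bars for the SE) against the distance of each gene's start from that of Dtx3l, in kb, with the lines' points set slightly apart. Parp14, Dtx3l and Parp9 lie at 2.24 to 4.15, and the 7 other tested genes lie between -0.27 and 0.30.

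Most of the remaining PARP family did not pass. Of 9 other family genes, 8 were tested (Parp16 fell under the filter) and 1 was higher in each control, Zc3hav1, the antiviral zinc-finger protein also called Parp13, at 0.91 ± 0.16 in WT (edgeR adjusted p = 0.000747) and 1.17 ± 0.15 in EV (adjusted p = 3.93e-05). Parp1, the main DNA-damage PARP, changed by 0.06 ± 0.09 and -0.02 ± 0.09, and Tiparp by 0.44 ± 0.15 (adjusted p = 0.0648) and 0.09 ± 0.12. The medians of these 8 genes were 0.02 and -0.02. Of 21 tested genes that read, remove or work beside ADP-ribose, 1 was higher in each control. That is near the share over all tested genes, 5.01% in WT and 3.99% in EV. The gene was Rnf114, a ubiquitin ligase, at 1.46 ± 0.20 and 1.36 ± 0.20, and the medians of the 21 were -0.03 and -0.005.

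Of 15 tested genes of NAD synthesis and use, Nampt, the rate-limiting enzyme of NAD salvage, was higher in both controls (1.04 ± 0.10 in WT and 0.84 ± 0.10 in EV). Sirt6, an NAD-dependent deacylase named after its value was seen, was lower in WT (-1.17 ± 0.34, edgeR adjusted p = 0.0190) and was not called in EV. The difference of responses, clones minus controls, was called lower for 1 gene in each of these 3 lists, where 3.68% of all tested genes were. The genes were Zc3hav1 (-1.12), Rnf114 (-1.35) and Nampt (-0.97). In untreated clones Nampt was lower by a log2 difference of -0.34 ± 0.08 (adjusted p = 0.00184). By pair, it was called lower in both clones against EV and in 1CF10 against WT. It was not called in 2CD7 against WT (-0.13 ± 0.11, edgeR adjusted p = 0.599).

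Of the 12 genes of the signalling chain, 8 were higher in each control, where 5.01% (WT) and 3.99% (EV) of all tested genes were. Among the 8 were the negative regulators Usp18 (6.26 ± 0.30 in WT, 5.45 ± 0.29 in EV) and Socs1 (4.93 ± 0.22 and 4.56 ± 0.21), and the transcription factor Stat2 (3.19 ± 0.16 and 3.04 ± 0.16). Irf7, a transcription factor, rose by 4.09 ± 0.29 and 3.25 ± 0.28, and Isg15, a ubiquitin-like modifier, by 4.34 ± 0.32 and 3.68 ± 0.31. The receptor and kinase genes Ifnar1, Ifnar2, Jak1 and Tyk2 did not pass in either control. In untreated clones, 5 of the 12 were lower, where 4.8% of all tested genes were. Among the 5 were Stat2 (-0.88 ± 0.18), Irf9 (-2.46 ± 0.24), Irf7 (-3.16 ± 0.49) and Isg15 (-3.22 ± 0.53).

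Among the genes whose 8 group means most resembled the mean pattern of the members, by Pearson r on log2 CPM, were Usp18 (r = 0.997), Igtp (0.997), Eif2ak2 (0.996), Gbp2 (0.996) and Ifi203 (0.996). These r values rest on 8 points from shared libraries, 2 of them far above the rest, and are a description. Among the members, the 6 stronger responders resembled each other with r from 0.972 to 0.995, while r with them was 0.812 to 0.857 for Parp3 and 0.718 to 0.800 for Parp8. Parp3 and Parp8 resembled each other least, at 0.637. Among the 3 genes most like Parp9 were Ifih1 (0.995) and Ddx58 (0.995). The gene most like Dtx3l was Gbp7 (0.997), most like Parp14 was Eif2ak2 (0.995), and most like Parp10 was Gbp2 (0.998). For Parp11 it was Usp18 (0.995), for Parp12 Ifi211 (0.997), for Parp3 Sat1 (0.990) and for Parp8 Ilrun (0.942).

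In the order of mean levels over the 8 groups, treated WT and treated EV were on top for Parp9, Parp10, Parp11, Parp12, Parp14 and Dtx3l. Treated WT was above treated EV without overlap for Parp9 (146 ± 9.5 against 97.04 ± 6.1 CPM, SD, n = 3) and Parp12 (121 ± 5.8 against 89.4 ± 4.8 CPM). The top 2 groups overlapped for Parp10, Parp11, Parp14 and Dtx3l. In these 6 genes the lower of the treated controls stood clear of the untreated ones, and the share of all tested genes that do so was not counted. Below the treated controls, Parp9 had a gap between the untreated controls and the clones. For Dtx3l, untreated EV was apart from its next lower neighbour, untreated 1CF10. Treated 1CF10 overlapped both untreated controls, and untreated 1CF10 overlapped untreated WT. The treated and untreated 2CD7 libraries all lay below every untreated control library. For the other 4 genes the neighbours overlapped down to the lowest group. For Parp3, treated WT (29.3 to 34.1 CPM) stood above every other group. For Parp8, treated WT (14.1 to 17.0 CPM) was apart from its next lower neighbour by mean, treated 1CF10 (up to 13.7 CPM). Treated WT overlapped treated EV (up to 15.3 CPM) and treated 2CD7 (up to 14.5 CPM) for Parp8. All the other groups of both genes overlapped their next neighbours.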

How the data were processed

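RNA was measured by a multiplexed 3′-end method with a 10 bp UMI, per the labels' protocols. The authors deposited raw UMI counts per Ensembl gene for 24 libraries, 1972192 to 3097331 UMIs each. The submitters' processing notes name builds GRCm38 and mm10 and the tools cutadapt 3.0, limma 3.50.0, edgeR 3.36.0, R 3.6.2 and R 4.1.2; for the aligner, nothing is given in the sources used here. The counts were fitted here with edgeR 4.0.16 (R 4.3.3): filterByExpr with a minimum count of 10 kept 11698 genes, TMM scaling, a robust quasi-likelihood fit over 8 group means, glmQLFTest for 13 contrasts and Benjamini-Hochberg adjustment over all tested genes, with 0.05 as the threshold. CPM are counts scaled to a library of 1000000 UMIs. The fit was tested on simulated data first. Members and lists were chosen with earlier results of these data known. Beyond the members, the genes named from a list are those called in both controls with the largest mean fold change, up to 6, plus Ifnar1, Tiparp, Zc3hav1 and Parp1, and the genes most alike over 8 group means of log2 CPM (prior count 2, average of at least 4). Other genes in the text (members of a list that complete a count, such as Ifnar2, Jak1 and Tyk2, chromosome 16 neighbours, markers, Sirt6, Irf9 and others) were named outside these rules, with their values known. Of the genes these rules pick, 1 is not reported here. Replicate numbers were not used as pairs in the main fit. Deviations of same-numbered libraries correlated at a mean r of 0.00928, against -0.00464 for other numbers. Of 24 libraries, 13 were closest to their own number out of 3, and whether the numbers mark pairs was not tested further. No 2 replicates were alike enough to be 1 library (chi-square per gene 1.42 to 4.90). Alternatives were RLE scaling, DESeq2 1.42.0, limma-voom (limma 3.58.1), no filter, a minimum count of 30, the replicate block, the compared groups alone and leaving out each replicate.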

Additional observations from a re-analysis of the deposited data

Results flagged for a closer look

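A test of the difference of responses itself, clones minus controls in 1 edgeR model, was past the threshold for 7 of the 8 genes, where 3.68% of all tested genes were lower. The 8 genes had been picked as interferon-responsive, so this count describes the choice as well. The log2 differences were -3.60 for Parp14, -2.95 for Dtx3l, -2.54 for Parp9, -2.43 for Parp10, -1.85 for Parp12, -1.48 for Parp11 and -0.70 for Parp3. In the 6 genes other than Parp3, every treated control library was above every clone library. How many of all tested genes separate in this way was not counted.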

How the results depend on the processing

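The counts of members called were the same under RLE scaling, DESeq2, limma-voom, no filter and a minimum count of 30 to within 1.5 times. With the replicate number as a block, 8 members were higher in WT, 6 in EV and 0 in each clone. In that fit, 7 had a lower response in clones and 4 were lower in untreated clones, and the block changed no call of a member. Over all genes, the block took the calls for EV minus WT from 3 higher and 2 lower to 8 and 6. Without untreated WT replicate 2, the count for EV minus WT went from 0 to 1, for untreated 1CF10 minus WT from 3 to 1 and for untreated 2CD7 minus WT from 2 to 1. Over all genes, the same fit took EV minus WT from 3 higher and 2 lower to 3 and 21, and took the genes lower in 1CF10 minus WT from 1289 to 1051 and in 2CD7 minus WT from 241 to 130. With the compared groups alone, where Parp14 fell under the filter, and without untreated EV replicate 3, the count for 1CF10 minus EV went from 2 to 1 and that for 2CD7 minus EV from 4 to 2. The latter was also 2 without untreated 2CD7 replicate 1. Over all genes, 791 were lower in 1CF10 minus EV and 569 in 2CD7 minus EV, against 825 and 638 with the compared groups alone and 642 and 446 without untreated EV replicate 3. The cause was not tested. Changes of sign occurred only in differences that were not called. With all replicates kept, they were 0.0260 for Parp10 in untreated 1CF10 minus EV and 0.00352 for Parp9 in untreated 2CD7 minus 1CF10 (both limma-voom), and for Parp3 in untreated 2CD7 minus WT 0.00397 (RLE), 0.00474 (DESeq2), 0.00591 (no filter), 0.000846 (minimum count 30) and 0.00701 (compared groups alone). The others came from leaving out 1 replicate, and the ranges over all such fits follow. In the response of 1CF10 the range was -0.0824 to 0.11 for Parp3, -0.20 to 0.23 for Parp10 and -0.25 to 0.11 for Dtx3l. In the response of 2CD7 the range was -0.0331 to 0.0588 for Parp3, -0.21 to 0.0937 for Parp9, -0.14 to 0.30 for Parp10 and -0.21 to 0.29 for Parp14. In the difference of the EV and WT responses the range was -0.21 to 0.42 for Parp10, -0.31 to 0.0652 for Parp11 and -0.35 to 0.20 for Parp14. For untreated 1CF10 minus EV the range was -0.23 to 0.16 for Parp8 and -0.20 to 0.31 for Parp10. For untreated 2CD7 minus EV the range was -0.28 to 0.22 for Parp10. For untreated 1CF10 minus WT the range was -0.00874 to 0.39 for Parp8 and -0.45 to 0.0122 for Parp10. For untreated 2CD7 minus WT the range was -0.0267 to 0.0449 for Parp3. For untreated EV minus WT the range was -0.59 to 0.0448 for Parp10, -0.18 to 0.19 for Parp11, -0.0392 to 0.50 for Parp12 and -0.21 to 0.34 for Parp14. For untreated 2CD7 minus 1CF10 the range was -0.12 to 0.15 for Parp9. Depth limits Parp14 in the clones most, at 2 to 13 UMIs a library.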
